A study of Mus musculus with 6 samples.

Results

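The transcripts of 9 transcription factors that direct helper T cell lineages and effector differentiation were examined in CD4 T cells from mouse spleen and lymph node. They are Tbx21, Gata3, Rora, Bcl6, Maf, Prdm1, Irf4, Batf and Id2, chosen by gene symbol with earlier results of these data known. All 9 were found among the 54532 gene rows of the deposited table, and all 9 passed the filter on low values (a mean of at least 1), which left 14944 genes. The study compared cells of C57BL/6 mice labelled WT (genotype label iCD4-PRMT5fl/fl, replicates 1, 2 and 4) with cells labelled KO (iCD4-PRMT5 delta/delta, replicates 1, 4 and 5). The prefix iCD4 is carried by both groups, and the labels do not state what drives the deletion, whether WT animals carry the driver, or the age of the mice. The treatment label of all 6 samples gives anti-CD3/CD28 for 48 h, whereas every title carries the word rest, so that the activation state is uncertain and common to both groups. The 6 columns of the deposited table used here also carry rest in their names, and 6 others, with act in theirs, match no sample. A code in the sample descriptions sets apart series 22, holding KO 1 with WT 1 and WT 2, and series 24, holding WT 4 with KO 4 and KO 5.

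Naive CD4 T cells that meet antigen take up one of several helper programmes, each held in place by a lineage factor. T-bet, encoded by Tbx21, directs T helper 1 cells, GATA3 directs T helper 2 cells, BCL6 directs follicular helper cells, and RORA acts in T helper 17 cells. BATF and IRF4 are induced by T cell receptor signals and bind DNA together with JUN proteins, c-MAF and BLIMP1 (encoded by Prdm1) act in effector and regulatory cells that make interleukin 10, and ID2 holds back the E proteins. BCL6 and BLIMP1 repress each other's genes.

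Values are robust FPM, which are sequenced fragments assigned to a gene and scaled by the authors with robust size factors. Sequencing depth is unknown. Differences are in log2(FPM + 0.5), taken as KO minus WT after a term for library series, and were fitted with limma over all 14944 genes. A gene was called at a Benjamini-Hochberg adjusted p below 0.05. Prmt5, the targeted gene, was at 34.9 in WT 1, 41.0 in WT 2 and 43.9 in WT 4, against 24.4 in KO 1, 23.8 in KO 4 and 21.5 in KO 5. Its values did not overlap between the groups, its change was -0.78 (SE 0.137), and it did not pass over all genes (limma adjusted p = 1). Markers of CD4 T cells were high in every library, with Lck, a T cell receptor kinase, at 462.6 to 646.6, and the summed level of the 12 markers was 3409.7 to 4227 in WT and 3657.4 to 4227.7 in KO. WT 1 differed most from the rest in breadth, having 44978 gene rows above 0 against 26045 to 37008 elsewhere.

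Transcripts of the 9 factors did not differ detectably between WT and KO. Limma called 0 of 9 as higher and 0 of 9 as lower, where 0% of all genes were called in either direction. At an unadjusted p under 0.05 there were 0 of 9, where 0.0803% of all genes were higher and 0.167% lower. WT and KO values overlapped for all 9, where values did not overlap for 1.09% of genes in the higher and 1.79% in the lower direction. The median change of the 9 was 0.01, with 5 positive and 4 negative, and that of all genes tested was 0.01. The 95% interval excluded a 2-fold difference in either direction for 9 of 9 factors, against 85.1% of all genes, and a 1.5-fold difference for 7 of 9, against 60.1% of all genes. These intervals hold for the deposited scaling. With values scaled to the ERCC spike-in RNAs, the median of all genes moved to -0.20 and that of the 9 factors to -0.20, with 0 of 9 positive and 0 called.

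The lineage factors Tbx21 and Bcl6 are shown with their promoter windows, together with Prdm1, because Tbx21 and Prdm1 had the widest ranges over the libraries and Prdm1 and Bcl6 form the antagonistic pair compared below. Each line is the 250 bases upstream of a RefSeq start (GRCm38.p6), 5′ to 3′ on the strand of the gene, and none of these windows touches an annotated exon. The Prdm1 window and the inner Bcl6 window lie within the span of the gene. Of the 9 genes, 8 were matched in the promoter table and Maf was not. Capitals mark matches on either strand to any of 7 motifs. The AP-1 motif was spelled TGANTCA, the STAT motif TTCNNNGAA, the GATA motif AGATAA, the T-box motif GGTGTGA, the NFAT motif TGGAAA, one E-box motif CAGCTG and the other E-box motif CAGGTG.
Tbx21, chr11:97115332-97115581, minus strand: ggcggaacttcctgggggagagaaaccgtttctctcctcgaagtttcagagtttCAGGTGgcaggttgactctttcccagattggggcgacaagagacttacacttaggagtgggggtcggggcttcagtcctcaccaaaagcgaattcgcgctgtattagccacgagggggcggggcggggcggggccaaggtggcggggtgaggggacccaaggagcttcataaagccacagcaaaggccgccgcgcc
Prdm1, chr10:44458749-44458998, minus strand: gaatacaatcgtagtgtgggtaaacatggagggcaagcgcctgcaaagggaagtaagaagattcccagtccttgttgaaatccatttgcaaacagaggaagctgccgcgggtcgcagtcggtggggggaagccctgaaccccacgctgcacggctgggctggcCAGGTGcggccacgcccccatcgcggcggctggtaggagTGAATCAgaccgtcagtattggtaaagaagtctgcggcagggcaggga
Bcl6, outer start, chr16:23988853-23989102, minus strand: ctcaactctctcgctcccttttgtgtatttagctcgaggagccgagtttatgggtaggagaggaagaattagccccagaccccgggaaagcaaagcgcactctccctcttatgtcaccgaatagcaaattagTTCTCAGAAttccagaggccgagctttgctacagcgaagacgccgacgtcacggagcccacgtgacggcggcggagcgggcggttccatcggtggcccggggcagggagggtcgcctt
Bcl6, inner start, chr16:23981284-23981533, minus strand: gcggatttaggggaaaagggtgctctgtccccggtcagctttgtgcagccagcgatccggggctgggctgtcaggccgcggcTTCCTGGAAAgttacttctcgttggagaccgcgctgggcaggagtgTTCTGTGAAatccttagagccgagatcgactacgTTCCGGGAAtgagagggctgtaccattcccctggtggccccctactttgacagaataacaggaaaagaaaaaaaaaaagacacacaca
The Tbx21 window holds 1 CAGGTG match, which 17.2% of the 32851 windows of this length in the table also hold. The Prdm1 window holds 1 CAGGTG and 1 TGANTCA match, the latter present in 6.75% of windows. The outer Bcl6 window holds 1 TTCNNNGAA match and the inner one 3, a motif present in 7.02% of windows. The inner window also holds 1 TGGAAA match, present in 18.6% of windows, which overlaps the first of its TTCNNNGAA matches. These are matches of letters and no binding was measured.

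**Figure D1:**
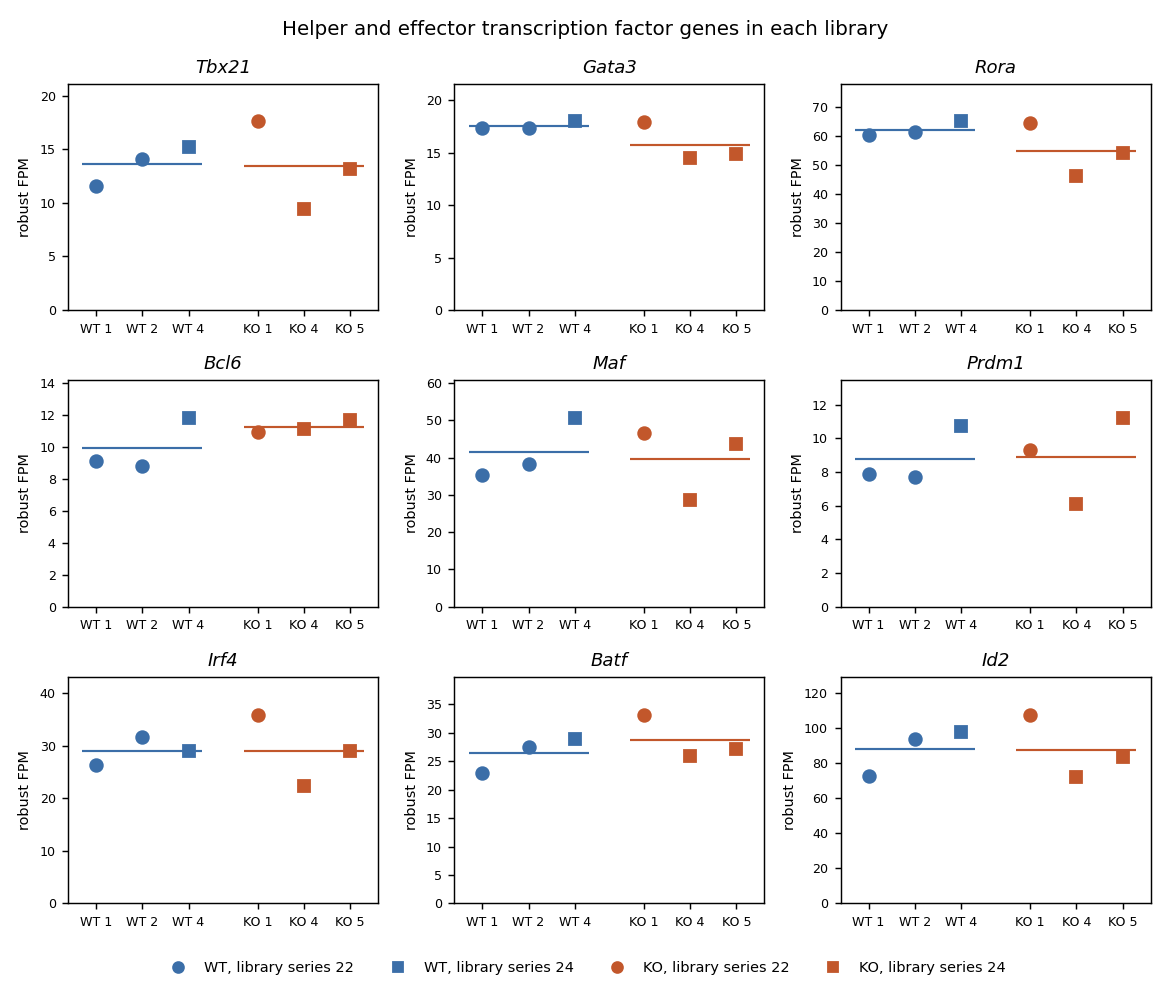
Robust FPM of the 9 factors in each library (vertical axes start at 0; circles, series 22; squares, series 24; blue, WT; orange, KO; lines, group means of 3 libraries). WT and KO values overlap in every panel, and KO 4 is the lowest library in 7 of the 9.

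Among the lineage factors, Tbx21 (ENSMUSG00000001444.2, GRCm38 chromosome 11, 97098071 to 97115331, minus strand) was at 11.6 in WT 1, 14.1 in WT 2 and 15.2 in WT 4, against 17.6 in KO 1, 9.4 in KO 4 and 13.2 in KO 5. The other factors are given in the same order of libraries. The highest and the lowest library were both KO, a 1.87-fold span, so that the KO values enclosed the WT values. WT averaged 13.6 ± 1.85 and KO 13.4 ± 4.10 (SD, n = 3 each), with a change of 0.01 (95% interval -0.53 to 0.54, limma adjusted p = 1).

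Gata3 (ENSMUSG00000015619.10, chromosome 2, 9857078 to 9890034, minus strand) measured 17.4, 17.4 and 18.0 in WT, against 17.9, 14.5 and 14.9 in KO. It had the narrowest span of the 9, at 1.24-fold, and 2 KO libraries, KO 4 and KO 5, lay below all WT libraries while KO 1 lay among them. The change was -0.12 (95% interval -0.42 to 0.18, limma adjusted p = 1). Of the Gata3 exon length, 1.94% is shared with other annotated genes on the same strand and 3.9% with genes on the opposite strand, and no source used here says if the counting was strand-specific.

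Rora (ENSMUSG00000032238.17, chromosome 9, 68653786 to 69388246, plus strand) measured 60.1, 61.3 and 64.9 in WT and 64.5, 46.1 and 54.0 in KO. As for Gata3, KO 4 and KO 5 lay below the WT range and KO 1 within it. WT averaged 62.1 ± 2.5 and KO 54.9 ± 9.23 (SD, n = 3 each), a change of -0.14 (95% interval -0.47 to 0.19, limma adjusted p = 1).

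Bcl6 (ENSMUSG00000022508.5, chromosome 16, 23965052 to 23988852, minus strand) measured 9.1, 8.8 and 11.8 in WT and 10.9, 11.1 and 11.7 in KO. WT 1 and WT 2 were the low libraries, WT 4 was the highest of all 6, and the 3 KO values lay close together. WT averaged 9.90 ± 1.65 and KO 11.2 ± 0.416 (SD, n = 3 each), a change of 0.11 (95% interval -0.21 to 0.44, limma adjusted p = 1). The 3 libraries of series 24 all lay above the 3 of series 22, as for 14.3% of genes tested, and the series difference of 0.22 was not called (limma adjusted p = 0.705).

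Maf (ENSMUSG00000055435.6, chromosome 8, 115682942 to 115707794, minus strand), which encodes c-MAF, measured 35.3, 38.2 and 50.6 in WT and 46.6, 28.7 and 43.6 in KO. WT 4 was the highest library and KO 4 the lowest, and both groups spread widely, WT averaging 41.4 ± 8.13 and KO 39.6 ± 9.59 (SD, n = 3 each). The change was -0.09 (95% interval -0.61 to 0.44, limma adjusted p = 1). Of its exon length, 5.34% lies opposite exons of another annotated gene.

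Prdm1 (ENSMUSG00000038151.13, chromosome 10, 44437177 to 44528501, minus strand) measured 7.9, 7.7 and 10.7 in WT and 9.3, 6.1 and 11.2 in KO. The 2 extreme libraries, KO 4 and KO 5, were again both KO. WT averaged 8.77 ± 1.68 and KO 8.87 ± 2.58 (SD, n = 3 each), while the change fitted with the series term was -0.06 (95% interval -0.63 to 0.52, limma adjusted p = 1).

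Of the factors induced by T cell receptor signals, Irf4 (ENSMUSG00000021356.10, chromosome 13, 30749226 to 30766976, plus strand) measured 26.4, 31.6 and 28.9 in WT and 35.9, 22.4 and 28.9 in KO. The group means were nearly equal, WT averaging 29.0 ± 2.60 and KO 29.1 ± 6.75 (SD, n = 3 each), with a change of 0.06 (95% interval -0.33 to 0.46, limma adjusted p = 1). Batf (ENSMUSG00000034266.6, chromosome 12, 85686669 to 85709087, plus strand) measured 23.0, 27.6 and 28.9 in WT and 33.2, 26.0 and 27.2 in KO. WT 1 was its lowest library and KO 1 its highest, and the change was 0.14 (95% interval -0.22 to 0.49, limma adjusted p = 1).

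Id2 (ENSMUSG00000020644.9, chromosome 12, 25093799 to 25097140, minus strand) measured 72.6, 94.0 and 97.7 in WT and 107.6, 71.8 and 83.2 in KO. KO 4 and WT 1 were the low libraries and nearly level, and KO 1 was the highest. WT averaged 88.1 ± 13.6 and KO 87.5 ± 18.3 (SD, n = 3 each), a change of 0.02 (95% interval -0.42 to 0.46, limma adjusted p = 1).

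The order of KO and WT libraries within each series was counted over the 9 factors. KO 1 lay above both WT libraries of its series for 9 of 9 factors, as it did for 53% of all genes tested. KO 4 lay below WT 4 for 9 of 9, against 68.7% of genes. KO 5 lay below WT 4 for 7 of 9, against 60.9% of genes, the exceptions being Irf4 with equal values and Prdm1 with a higher one. Both directions at once, KO above WT in series 22 and below it in series 24, were seen in 7 of 9 factors and in 31.5% of all genes, and the reverse in 0 of 9 and 8.32%. KO 4 was the lowest of the 6 libraries for 7 of 9 factors, all but Bcl6 and Batf, against 18.6% of genes. KO 1 was the highest for 4 of 9, Tbx21, Irf4, Batf and Id2, against 20.4%.

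**Figure D2:**
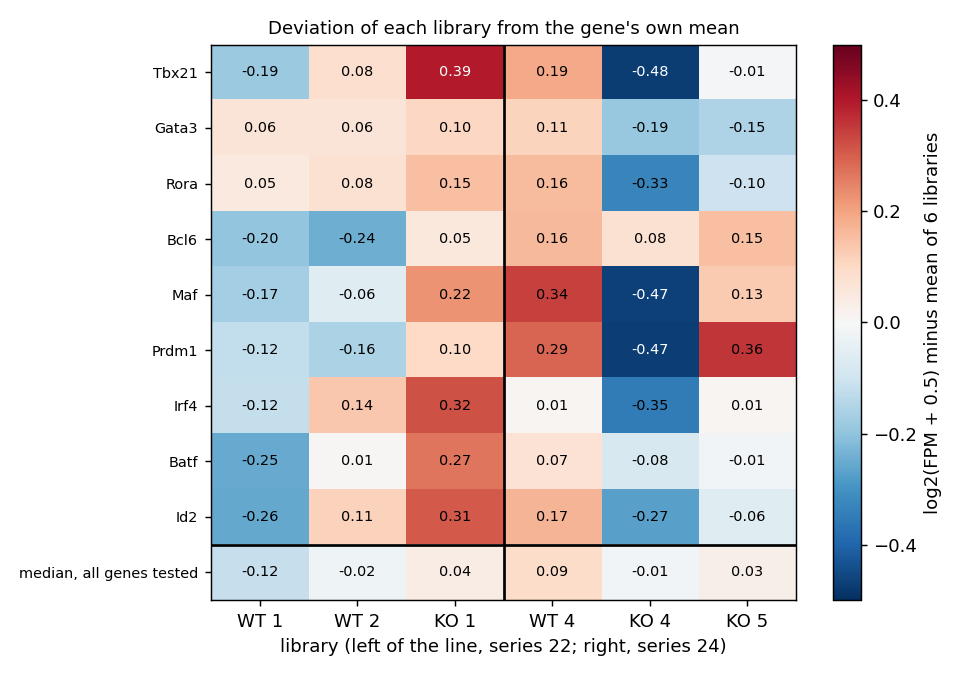
Deviation of each library from the gene's mean over the 6 libraries, in log2(FPM + 0.5), for the 9 factors (rows) and, in the last row, the median over all 14944 genes tested; columns are libraries, with series 22 left of the line and series 24 right of it. KO 1 is above 0 in all 9 rows, while KO 4 is below 0 in 8 of them and reaches -0.48 for Tbx21.

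Within series 22, where KO 1 is set against WT 1 and WT 2, the changes of the 9 factors ran from 0.04 for Gata3 to 0.45 for Tbx21, with a median of 0.31, beside 0.12 over all genes. Within series 24, where KO 4 and KO 5 are set against WT 4, they ran from -0.51 for Maf to -0.05 for Bcl6, with a median of -0.34, beside -0.08 over all genes. Each of these comparisons rests on 1 library on one side. The difference between the 2 series in the KO minus WT change was tested as an interaction in limma and called for 0 of 9 factors, where 0% of all genes were called and 2.47% had an unadjusted p under 0.05. It was largest for Tbx21, at -0.88 (SE 0.368, limma adjusted p = 0.678), and for Maf, at -0.85 (SE 0.363, limma adjusted p = 0.678). Id2, at -0.72 (SE 0.280, 95% interval -1.40 to -0.03), had the one unadjusted p under 0.05 among the 9 (0.0439 by limma's moderated test across all genes) and did not pass (limma adjusted p = 0.678).

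**Figure D3:**
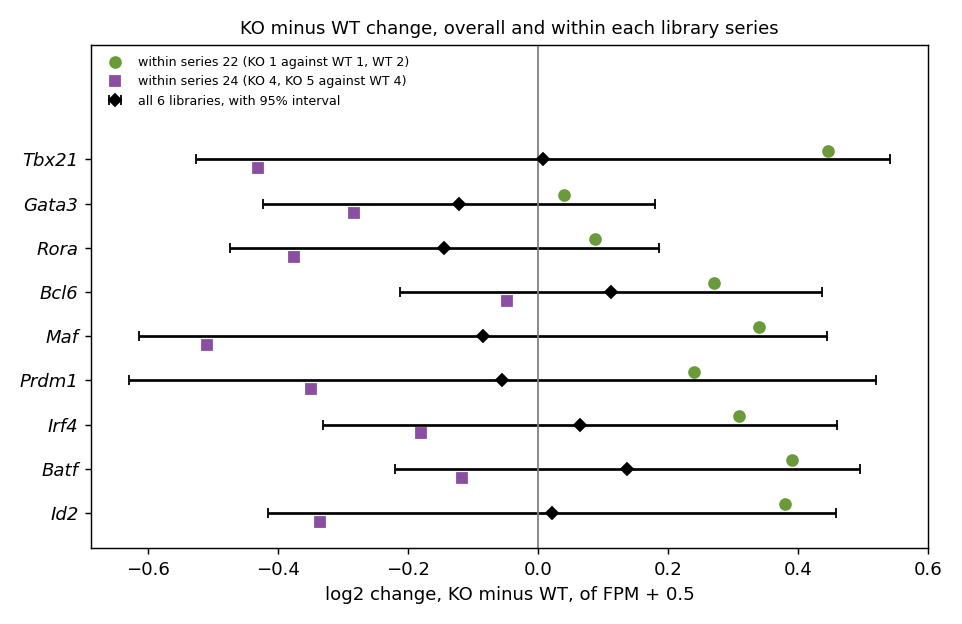
KO minus WT change in log2(FPM + 0.5) for each factor: diamonds with bars, fit to all 6 libraries with its 95% interval; circles, within series 22; squares, within series 24. Every interval crosses 0, every circle lies right of 0 and every square left of it.

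The direction of the fitted change depended on which libraries were used. Without WT 4, which leaves series 22 to carry the comparison, 9 of 9 factors were positive, with a median of 0.31. Without KO 1, which leaves series 24, 0 of 9 were positive, with a median of -0.34. Without WT 1, the library that stood apart, 2 of 9 were positive, with a median of -0.11. Limma called 0 of 9 in each of these fits, where 0 of all genes tested were called. The difference between library series, fitted with genotype as a term, was called for 0 of 9 factors (smallest limma adjusted p = 0.705), where 0.00669% of all genes were called higher and 0.134% lower in series 24. At an unadjusted p under 0.05 there were 0 of 9, where 5.98% of all genes were higher and 2.84% lower in series 24.

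Levels can be compared between genes only per length of exon. Id2 had the highest level, at 36.02 ± 5.91 FPM per kb (SD, n = 6), and Batf followed at 19.7 ± 2.40, and both stood clear of the gene next in order in every library. Irf4 (5.92 ± 0.933), Tbx21 (5.43 ± 1.15), Maf (4.91 ± 0.971), Rora (4.47 ± 0.553) and Gata3 (4.19 ± 0.393) came next, and the range of each overlapped that of its neighbour in this order. Irf4 was above Tbx21 in 5 of 6 libraries, Tbx21 above Maf in 5, Maf above Rora in 3 and Rora above Gata3 in 5. Prdm1 (1.58 ± 0.349) and Bcl6 (1.58 ± 0.194) were lowest and overlapped each other, and Gata3 lay above Prdm1 in 6 of 6 libraries. The values divide by all annotated exons of a gene, 13071 bases for Rora, and which exons were used in these samples was not measured.

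**Figure D4:**
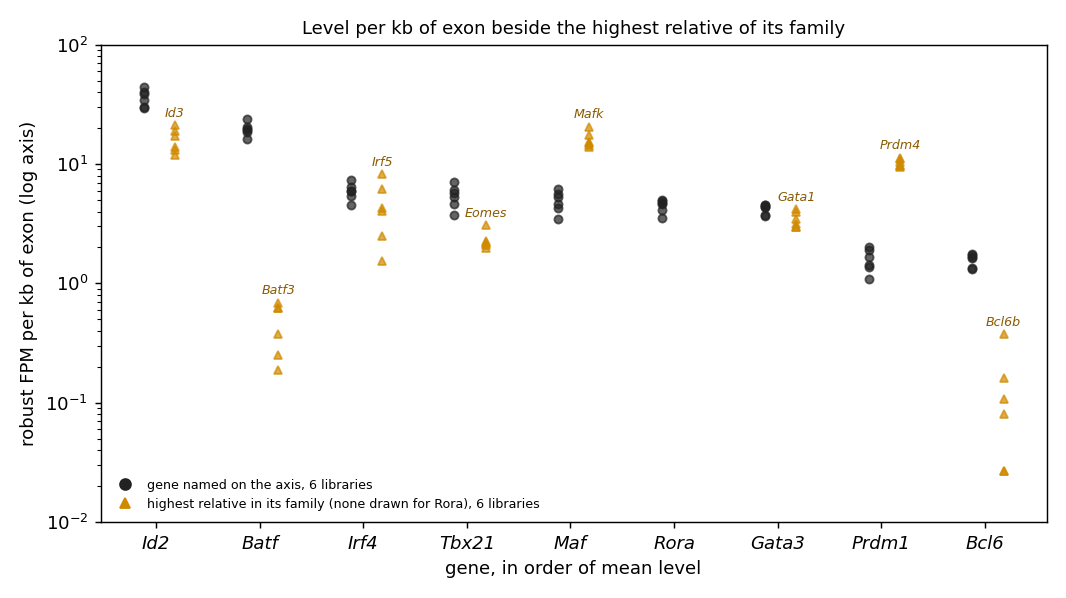
Robust FPM per kb of exon (log axis) for the 9 factors in order of mean level (black circles, 6 libraries) and for the most abundant relative examined in each family other than that of Rora (orange triangles, 6 libraries). Id2 and Batf stand above the other 7 factors, and Mafk and Prdm4 stand above Maf and Prdm1.

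Selected relatives of each factor were compared with it per kb of exon, and genes of the families outside this selection were not compared. Batf exceeded its relatives Batf3 and Batf2 by 42.8-fold and 124-fold per kb, and Id2 exceeded Id3 by 2.25-fold, while Id1 and Id4 were at 0.532 and 0.0779 FPM per kb. Tbx21 was 2.36-fold above Eomes, the T-box factor of memory and cytotoxic lymphocytes. Bcl6 was 12.1-fold above Bcl6b. Each of these pairs had separate ranges over the 6 libraries. Gata3, at 1.21-fold the level of Gata1, and Irf4, at 1.33-fold the level of Irf5, overlapped their relatives. Maf lay below the small MAF protein gene Mafk (16.1 FPM per kb), and Prdm1 lay below Prdm4 (10.3 FPM per kb).

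For 3 pairs of regulators, log2 ratios of FPM + 0.5 were compared within libraries. There the scaling of a library enters only through the added 0.5. The log2 ratio of Tbx21 to Gata3 was -0.57, -0.29 and -0.24 in WT, against -0.02, -0.60 and -0.17 in KO. KO 1 was highest and KO 4 lowest, and the groups differed by 0.10 (two-sided exact permutation p = 0.6, adjusted p = 0.7). The log2 ratio of Prdm1 to Bcl6 was -0.19, -0.18 and -0.14 in WT and -0.22, -0.81 and -0.06 in KO, so that KO 4 alone stood apart. The groups differed by -0.19 (two-sided exact permutation p = 0.7, adjusted p = 0.7), and by 0.03 without KO 4. The log2 ratio of Id2 to Id3, the other Id gene of T cells, was 1.75, 1.97 and 1.52 in WT and 1.5, 1.2 and 1.73 in KO. It differed by -0.27 (two-sided exact permutation p = 0.2, adjusted p = 0.6). The p-values were adjusted over the 3 ratios, and 3 libraries against 3 cannot give a p below 0.1. Unlike the limma fits, the permutation test had no term for library series.

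The genes that these factors regulate or work with were read from 9 lists. By genotype, limma called 0 members of any list in either direction, where 0% of all genes were called. Of the T helper 1 programme, 17 of 19 genes were tested, with a median change of -0.0003, at 0.25 in series 22 and -0.24 in series 24. Ifng, the cytokine that defines these cells, measured 10.9, 14.3 and 5.2 in WT and 20.4, 3.8 and 3.5 in KO, so that all 3 libraries of series 22 exceeded all 3 of series 24, as for 6.14% of all genes tested. Its KO minus WT change was 0.11 (95% interval -0.49 to 0.72) and its series difference of -1.76 was not called (limma adjusted p = 0.0702). Ccl5, a chemokine of effector cells, had the smallest genotype p of the list and a change of 0.36, and Ifngr2, an interferon gamma receptor chain, followed at 0.13. The highest levels per kb were those of the receptor genes Ifngr1 (67.2 FPM per kb) and Il2rb (55.0).

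Of the T helper 2 programme, 12 of 18 genes were tested, with a median change of 0.13, at 0.31 and -0.13 in the 2 series. Il4 was low, at 1.7, 2.0 and 2.8 in WT and 3.5, 1.7 and 2.4 in KO, with a change of 0.19. Ccr3, a chemokine receptor also found on eosinophils, had a change of 0.54 (SE 0.354) that was not called. It measured 11.6, 19.8 and 45.8 in WT and 37, 32.1 and 50.7 in KO. Ccr3 was lowest in WT 1 and highest in KO 5, as was the summed level of the 14 myeloid markers given below. Of all genes tested, 46% were lowest in WT 1 and 14.3% highest in KO 5 (ties to the first library). All 14 myeloid markers had positive changes, with a median of 0.44, where 8128 of all 14944 genes were positive. The myeloid median was 0.95 within series 22 and -0.02 within series 24, and Ccr3 changed by 1.26 and -0.18. Which cells gave the Ccr3 values was not tested. Stat6, which relays interleukin 4 signals, had a change of 0.21. The most abundant per kb were Stat5b (47.5 FPM per kb) and Il4ra (45.5).

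Of the T helper 17 programme, 8 of 12 genes were tested, with a median change of -0.17, at -0.0046 and -0.14 in the 2 series. Il17a was listed at 0 to 0.2 in the 6 libraries. Il1r1, the interleukin 1 receptor, had a change of -0.37. Nfkbiz (40.6 FPM per kb) and Hif1a (32.6) were the most abundant.

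Of the follicular helper programme, 15 of 16 genes were tested, with a median change of 0.01, at 0.19 and -0.26 in the 2 series. Cxcr5, the receptor that brings these cells to follicles, measured 24, 23.3 and 27.8 in WT and 30.8, 22.9 and 21.9 in KO, a change of 0.03. Il21, their cytokine, measured 8.1, 3.1 and 2.6 in WT and 6.7, 1.9 and 2.2 in KO, a change of 0.04. Tox, a nuclear factor of activated and follicular cells, was the 1 gene of the list with no overlap between groups, at 40.2, 40.8 and 39.3 in WT and 37.7, 30.1 and 35.8 in KO (change -0.18, limma adjusted p = 1), where 1.79% of all genes were lower in KO with no overlap. Tox2 had a change of -0.53 and ranged from 1.0 to 5.6. Btla (62.1 FPM per kb) and Il6st (44.5) were the most abundant.

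Of the regulatory T cell programme, 16 of 16 genes were tested, with a median change of -0.01, at 0.22 and -0.31 in the 2 series. Foxp3 measured 26.5, 34.1 and 37.2 in WT and 31.5, 27.4 and 31.7 in KO, a change of -0.13 (95% interval -0.50 to 0.24). Groups did not overlap for Ikzf4, at 10.4, 10.4 and 13.7 in WT and 9.4, 9.8 and 10.3 in KO (change -0.28), or for Itgae, at 9.2, 10.2 and 12 in WT and 12.5, 12.4 and 12.5 in KO (change 0.20), and neither passed (limma adjusted p = 1 for both). Of all genes, 1.79% were lower and 1.09% higher in KO with no overlap. Tnfrsf18 (46.9 FPM per kb) and Ctla4 (38.0) were the most abundant.

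Of the AP-1 and IRF partners with which BATF and IRF4 bind DNA, 12 of 16 genes were tested, with a median genotype change of 0.11, at 0.37 and -0.12 in the 2 series. Junb measured 799.4, 1023.3 and 443.4 in WT and 1401.8, 375.1 and 427.3 in KO, with a genotype change of 0.24, and Atf3, at 0.7 to 2.6, had one of 0.56. Jun measured 330.3, 344.2 and 163.5 in WT and 467.0, 132.7 and 159.9 in KO, with a genotype change of 0.15. For Jun and Junb, the 3 libraries of series 22 exceeded the 3 of series 24, which 6.14% of all genes also showed. Jun was called as lower in series 24 (difference -1.36, limma adjusted p = 0.0320) and was the 1 gene of this list called between series. It lost that call without WT 2 (limma adjusted p = 0.0784), WT 4 (0.131), KO 1 (0.395) or KO 5 (0.0956), and also with total-sum scaling (0.0532), ERCC scaling (0.999974) or no mean-variance trend (0.210). Over all 15 alternatives its adjusted p was 0.00341 to 0.999974. Junb was not called between series (difference -1.42, limma adjusted p = 0.0513). Batf and Irf4 had series differences of -0.06 and -0.24 that were not called, and whether they differ from Jun in this was not tested.

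Of the E protein and Id genes, 6 of 8 were tested, with a median change of 0.08, at 0.15 and -0.14 in the 2 series. Id3 measured 21.2, 23.6 and 33.7 in WT and 37.7, 31.0 and 24.7 in KO, a change of 0.23, and Tcf12, an E protein gene, had a change of -0.05. Of the corepressors of BCL6 and BLIMP1, 12 of 12 were tested, with a median change of -0.01, at 0.13 and -0.13 in the 2 series. Prmt5 itself is on this list and had its smallest p. Tle4 had a change of 0.12, and Ncor1 (33.8 FPM per kb) and Ehmt2 (24.4) were the most abundant. Of 23 relatives of the 9 factors, 16 were tested, with a median change of 0.09, at 0.19 and -0.07 in the 2 series. Eomes had a change of 0.25, and Mafk and Id3 had the highest levels per kb.

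**Figure D5:**
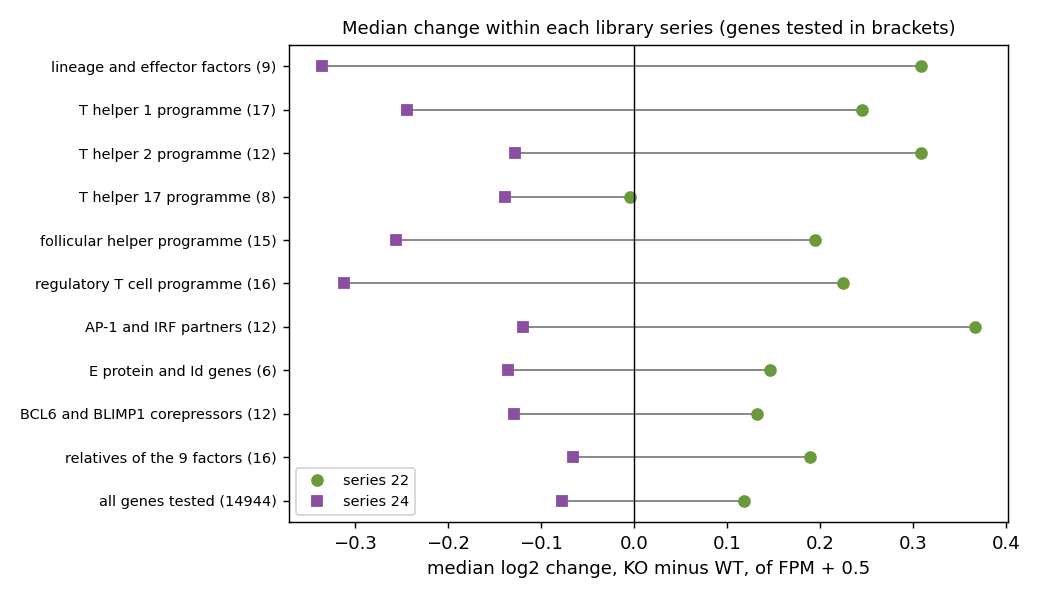
Median KO minus WT change in log2(FPM + 0.5) within series 22 (circles) and within series 24 (squares) for the 9 factors, for the 9 lists and for all genes tested, with the number of genes tested in brackets. All medians within series 24 lie below 0, and those within series 22 lie above 0 except that of the T helper 17 programme.

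The likeness of expression profiles was measured as the root mean square difference of log2(FPM + 0.5), centred on each gene's mean, over the 6 libraries and among 10319 genes with a mean of at least 5. The nearest profiles to Tbx21 were those of Cdc20 (0.067) and Clpp (0.068), and to Irf4 those of Hist1h2bc (0.029) and Snx18 (0.038). Maf was nearest to Nrp1 (0.076) and Ikzf2 (0.082), and Prdm1 to Cpq (0.072) and Rab11a (0.087). Gata3 was nearest to Pvr and R3hcc1l (0.036 for both), and Rora to Tmub1 (0.039) and R3hcc1l (0.047). Bcl6 was nearest to Xlr4c (0.019) and Yipf6 (0.031), Batf to Yars2 (0.010) and Cox4i1 (0.014), and Id2 to Atp5d (0.042) and Lnx2 (0.049). Among the 9 factors themselves, Gata3 and Rora were each other's nearest (0.067), with 71 other genes closer to Gata3 and 22 to Rora. Irf4 and Id2 were also each other's nearest (0.097), with 92 other genes closer to Irf4 and 124 to Id2. The same held for Maf and Prdm1 (0.116), with 39 other genes closer to Maf and 16 to Prdm1. Batf was nearest to Id2 (0.102), with 1501 other genes closer. Tbx21 was nearest to Id2 (0.098), with 11 other genes closer, and Bcl6 was far from all others, its nearest being Batf (0.169) with 5775 genes closer. The profiles share the same 6 libraries, so that differences between libraries enter every one of these values.

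Several of the 9 genes are also transcribed in other blood cells, among them Maf and Prdm1 in macrophages and Irf4 and Prdm1 in plasma cells, and values of a whole sample cannot tell fewer cells of a type from less RNA per cell. The summed level of 14 myeloid markers was 327.5, 522.3 and 1201.9 in WT and 820, 852 and 1753.5 in KO, with Vcam1 and Lyz2 the highest. Irf5 measured 4.5, 7.2 and 17.9 in WT and 11.8, 12.4 and 23.9 in KO. Both Irf5 and Irf8, also expressed in myeloid cells, were lowest in WT 1 and highest in KO 5. WT 1 was the lowest library for 46% of all genes tested, and KO 5 the highest for 14.3%. The myeloid sum was highest in KO 5 and WT 4, where Prdm1 was also highest (11.2 and 10.7), and Maf was highest in WT 4 (50.6). Maf and Prdm1 were lowest in KO 4, where the myeloid sum was above that of WT 1 and WT 2. The summed level of 6 plasma cell markers was 91.9 to 138.4 in WT and 92.3 to 195.7 in KO, with Xbp1 and Jchain the highest. Dendritic cell markers (7 genes, Itgax and Flt3 highest) summed to at most 21.4, in KO 5, and to at least 9.8, in WT 2, and B cell markers to 36 to 54.8 and 44 to 59.5 (10 genes, H2-Aa and Cd22 highest). CD8 T and NK cell markers summed to 100.9 to 129.5 and 103.1 to 135.5 (8 genes, Klrk1 and Klrb1c highest), and granulocyte and mast cell markers to 31 to 67.2 and 16.1 to 124.6 (12 genes, S100a9 and S100a8 highest). Of 4 erythroid markers, Hba-a1 and Hbb-bs were listed at 0 in all libraries. Of 5 stromal and endothelial markers, Pecam1, which T cells also express, made up most of the sum of 244 to 306.7 in WT and 271 to 282.7 in KO. No list of the other cell types had a member at 0 in all libraries except the erythroid one, and the part of these cells in the values of the 9 factors was not tested.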

How the data were processed

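RNA from 6 samples of CD4 T cells was sequenced after removal of ribosomal RNA with a stranded TruSeq kit, per the labels' protocols. Tools listed in the submitters' processing notes are featureCounts, STAR, DESeq and DESeq2, without version, role or order, with the build GRCm38.p3. The authors deposited robust FPM (treated as RPM, fragments scaled by size factors), rounded to 1 decimal, so that whole reads and depth could not be recovered. Columns summed to 857334 to 954014 over gene rows. Of 12 value columns, 6 matched no sample by name and were not used. The 92 ERCC rows were left out of tests.

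Genes with a mean of at least 1 were fitted as log2(FPM + 0.5) with limma 3.58.1 in R 4.3.3 (mean-variance trend, terms for library series and genotype, two-sided moderated test, Benjamini-Hochberg adjustment over 14944 genes). The fit was also run on simulated data with independent noise and the same genotype change in both series. That setting lacks the opposite changes within series seen for the 9 factors. Per the design text the samples are biological replicates, and p-values measure the spread between them. Exon lengths and gene positions came from GENCODE M21 (GRCm38) and promoters from RefSeq (GRCm38.p6). Genes named were the 9 factors, a fixed set of lineage genes and the most abundant of the relatives examined for each factor. In each list the 2 of smallest p and the 2 of highest level per kb were named. For cell markers the 2 of highest level were named, and for likeness the 2 nearest profiles. Irf8, Batf2, Id1, Id4, Hba-a1 and Hbb-bs were named after their values were seen. Some genes that the rule names are not reported here. The factors and lists were chosen with earlier results of these data known. Alternatives changed the pseudocount, filter, scaling, variance model, terms and libraries. Figures were drawn with matplotlib 3.10.9.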

Additional observations from a re-analysis of the deposited data

How the results depend on the processing

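Depth is unknown, so that counting error could not be separated from other spread. Across all alternatives run, limma called 0 of the 9 factors by genotype, and across the alternatives to the series and interaction fits it also called 0. With the replicate block (only numbers 1 and 4 are in both groups, and they lie in different library series), 1 gene was called higher and 4 lower in KO, and the changes were -0.0421 for Tbx21, -0.27 for Prdm1, -0.21 for Maf, 0.0613 for Id2 and 0.0379 for Irf4, with 0 of the 9 factors called. The numbers were not taken to pair the samples. Deviations from the group mean correlated at -0.16 for WT 1 and KO 1 and -0.41 for WT 4 and KO 4. Over all pairings of a WT with a KO library the correlations ran from -0.41 to 0.485, the highest for WT 1 and KO 4. Library series enters these values, and the deviations within a group sum to 0, so that they cannot settle the pairing. With the block the ratio differences were 0.09 for Tbx21 to Gata3, -0.35 for Prdm1 to Bcl6 and -0.29 for Id2 to Id3. With ERCC scaling the genotype changes turned negative for Tbx21 (-0.20), Bcl6 (-0.10), Irf4 (-0.15), Batf (-0.0796) and Id2 (-0.20), as the scaling moved the median of all genes to -0.20. Without the series term they turned for Tbx21 (-0.0587), Irf4 (-0.017) and Id2 (-0.0175), and the cause was not tested.

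Leaving out each library in turn moved the genotype changes between -0.43 and 0.45 for Tbx21, -0.28 and 0.0397 for Gata3, -0.38 and 0.087 for Rora, -0.0482 and 0.27 for Bcl6, -0.51 and 0.34 for Maf, -0.35 and 0.24 for Prdm1, -0.18 and 0.31 for Irf4, -0.12 and 0.39 for Batf, and -0.34 and 0.38 for Id2. For all 9, the lower value came without KO 1 and the higher without WT 4. The series differences moved between 0.0615 and 0.38 for Bcl6, -0.64 and 0.24 for Tbx21, -0.28 and 0.0476 for Gata3, -0.37 and 0.10 for Rora, -0.39 and 0.46 for Maf, -0.16 and 0.43 for Prdm1, -0.49 and 0.0007 for Irf4, -0.31 and 0.19 for Batf, and -0.47 and 0.24 for Id2, in each case lowest without WT 4 and highest without KO 1. The Tbx21 to Gata3 ratio difference moved between -0.0189 (without KO 1) and 0.27, that of Prdm1 to Bcl6 between -0.35 and 0.0305 (without KO 4), and that of Id2 to Id3 between -0.40 (without KO 5) and -0.13 (without KO 4), with -0.16 without WT 2.

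Between library series, 1 gene was called higher and 20 lower in series 24. These counts were 2 higher with a pseudocount of 0.1, 6 and 48 with a mean of at least 5, 3 and 10 with ERCC scaling, 3 and 34 with the robust setting, 0 and 0 with no mean-variance trend, and 17 and 70 without the genotype term. Leaving out a library moved them between 0 and 38 higher and between 0 and 92 lower. The interaction called 8 genes with ERCC scaling and 0 otherwise, and could not be fitted without WT 4 or KO 1. The causes were not tested.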
